A study of Mus musculus with 12 samples.

Results

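The 10 genes described here are markers of type I alveolar epithelial (AT1) cells: *Ager*, *Hopx*, *Rtkn2*, *Clic5*, *Cav1*, *Aqp5*, *Akap5*, *Pdpn*, *Emp2* and *Spock2*. They were taken by symbol from a table of 55450 mouse genes, and each symbol matched 1 gene ID. RNA-seq was carried out on 12 libraries of cultured type II alveolar epithelial (AT2) cells from C57BL/6 mice, 3 for each of 4 groups. The mice were *AhR f/f*, in which both copies of the aryl hydrocarbon receptor gene *Ahr* are floxed and no Cre is present, or *Sftpc-Cre;AhR f/f*, in which the surfactant protein C locus drives Cre in AT2 cells. The sample titles name these WT and AhR. They are called WT and KO here, although the WT cells are floxed. In each genotype the cells received PBS or cockroach extract (CRE) at 50 µg/ml for 24 h. All 12 libraries come from floxed mice, and because only one genotype carries Cre, Cre itself and loss of AhR cannot be told apart. The AT2 cells had been obtained from dispersed lung by removing cells that carry leukocyte, erythroid and Sca-1 surface proteins, and were grown on collagen I. The labels do not say whether the 3 libraries of a group come from separate mice or cultures, so the tests measure the spread between these libraries, which may be technical.

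AT1 cells are the thin, flat cells that cover most of the alveolar surface and form its barrier to gas and fluid. AT2 cells make surfactant and are also the progenitors of AT1 cells. On a stiff culture surface, AT2 cells lose surfactant gene expression and take on AT1 genes over days, often through an intermediate state rich in keratin 8. Several of the 10 genes are used by other cells too: *Cav1* is abundant in endothelium and fibroblasts, and *Pdpn* in mesothelium, lymphatic endothelium and some fibroblasts. The libraries are bulk RNA, in which fewer AT1-like cells and less of these RNAs in each cell cannot be told apart.

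The DNA just upstream of the gene start is shown for *Ager*, *Clic5* and *Emp2*, called lower with CRE in both genotypes in every paired fit described further on, and for *Akap5*, which holds 1 of 2 short motifs searched for: GCGTG, the core bound by AhR, and CATTCC, the core bound by TEAD factors, the partners of YAP and TAZ. Both strands were searched over the 250 bases before each RefSeq start (GRCm38.p6), and 9 of the 10 genes had an entry, with *Hopx* and *Cav1* having more than one start. The sequences below run 5′ to 3′ on the strand of the gene, with any motif match in capitals.
*Ager*, chr17:34597600-34597849, plus strand: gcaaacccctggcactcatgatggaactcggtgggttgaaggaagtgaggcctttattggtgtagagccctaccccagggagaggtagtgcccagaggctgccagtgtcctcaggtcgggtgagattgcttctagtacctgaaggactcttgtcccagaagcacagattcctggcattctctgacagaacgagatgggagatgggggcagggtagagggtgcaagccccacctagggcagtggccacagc
*Clic5*, chr17:44188322-44188571, plus strand: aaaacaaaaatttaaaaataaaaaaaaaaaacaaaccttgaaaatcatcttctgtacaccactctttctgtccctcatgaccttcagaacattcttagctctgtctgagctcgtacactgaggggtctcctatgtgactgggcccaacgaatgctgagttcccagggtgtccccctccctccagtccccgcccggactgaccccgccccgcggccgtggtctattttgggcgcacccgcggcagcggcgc
*Emp2*, chr16:10313969-10314218, minus strand: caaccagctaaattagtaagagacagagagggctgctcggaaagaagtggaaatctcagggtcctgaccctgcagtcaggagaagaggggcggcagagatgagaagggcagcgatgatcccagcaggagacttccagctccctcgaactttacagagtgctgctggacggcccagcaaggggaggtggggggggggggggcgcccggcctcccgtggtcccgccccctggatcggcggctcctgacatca
*Akap5*, chr12:76324641-76324890, plus strand: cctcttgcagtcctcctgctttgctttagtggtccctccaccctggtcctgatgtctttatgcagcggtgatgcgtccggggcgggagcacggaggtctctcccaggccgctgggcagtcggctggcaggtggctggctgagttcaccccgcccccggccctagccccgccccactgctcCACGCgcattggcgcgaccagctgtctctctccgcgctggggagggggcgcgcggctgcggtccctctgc
None of these 4 windows overlapped an annotated exon. *Ager*, *Clic5* and *Emp2* held neither motif. *Akap5* held 1 AhR core on the opposite strand, 70 bases before the start. Among the windows not shown, *Aqp5* had 2 AhR cores, 179 and 95 bases before its start, and 1 of the *Hopx* starts had 1, 42 bases before it. Over all 32851 promoter windows of this length, 28.2% held the AhR core and 12.6% the TEAD core, so 3 genes of 9 with the first and 0 with the second are a description of these windows only. *Rtkn2* is named only.

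Judged by FPKM, which corrects for transcript length and library size, in WT cells with PBS, the members ranged from above 34.3% to above 99.1% of the 20612 genes tested. *Ager* stood highest at 244 ± 32.9 FPKM (SD, n = 3). *Emp2* followed at 142 ± 21.4 FPKM, and then came *Hopx* (83.3 ± 6.83 FPKM), *Clic5* (77.6 ± 7.29 FPKM) and *Aqp5* (68.1 ± 10.2 FPKM). The libraries of *Hopx* overlapped those of *Clic5*, and the libraries of *Clic5* those of *Aqp5*. Within each library of this group, though, *Hopx* was above *Clic5* and *Clic5* above *Aqp5*. In KO cells with PBS the mean of *Clic5* (91.3 FPKM) was above that of *Hopx* (89.8 FPKM), with overlap. *Pdpn* had 34.6 ± 17.2 FPKM, *Akap5* 14.6 ± 2.38 and *Cav1* 10.7 ± 9.82, with overlap between the last pair. *Rtkn2* (0.929 ± 0.203 FPKM) and *Spock2* (0.636 ± 0.161 FPKM) were barely expressed and overlapped, although at this depth each library still held at least 125 counts of *Rtkn2* and 195 of *Spock2*. With CRE, *Ager* came down to 126 ± 21.9 FPKM in WT cells and its libraries overlapped those of *Emp2* at 108 ± 15.0 FPKM. KO cells with CRE showed the same overlap, at 154 ± 37.6 FPKM for *Ager* and 118 ± 11.8 FPKM for *Emp2*. Within every CRE library of both genotypes *Ager* was still above *Emp2*. Counts per kilobase of exon were nearly proportional to FPKM. Every member therefore kept its rank in all 4 groups by that measure, which is no separate check of the order.

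These cultures held the RNA of AT2 cells and of other cells. *Sftpc*, the surfactant protein that defines AT2 cells, had 5091 ± 354 FPKM in WT cells with PBS, while *Krt8*, a keratin of the intermediate state, had 1715 ± 243 FPKM. *Scgb1a1*, the secretory protein of club cells in the airway, had 10965 ± 2750 FPKM, more than *Sftpc*. Total counts per library lay between 68878065 and 80935797. As a check of the labels, *Cyp1b1*, a gene switched on by AhR, had 344 to 465 CPM in the 6 WT libraries and 31.8 to 63.9 CPM in the 6 KO libraries. *Ahr* itself, counted over the whole gene, lay between 37.7 and 56.2 CPM throughout and does not check the deletion.

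The question put to the CRE comparison was whether the AT1 genes respond to the extract in WT and in KO cells. All 10 members had a log2 fold change below 0 with CRE in WT cells, where 50.2% of all genes tested did, and again in KO cells, where 50.5% did. Their median log2 fold change was -0.43 and -0.42, against -0.0012 and -0.0027 for all genes. Averaged over the genotypes all 10 were again below 0 (50.4% of all genes). Libraries sharing a replicate number deviated together from their group means in both genotypes, so each CRE library was also compared with its own PBS library. All 3 WT pairs were lower with CRE for 8 members (21.1% of all genes) and all 3 KO pairs for 7 (18.6%). In 6 of 6 such pairs *Ager*, *Rtkn2*, *Clic5*, *Aqp5* and *Emp2* were lower with CRE, which 6.79% of all genes tested also were. The other 5 members were lower in 5 of 6 pairs.

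How many members passed a test depended on the pairing. In edgeR's quasi-likelihood test on 4 group means with Benjamini-Hochberg adjustment over all genes, 0 members passed 0.05 in WT cells, where 0.0146% of genes were called lower, and 0 in KO cells, where 0.0340% were. At an unadjusted p below 0.05 this test gave 6 members in the first genotype (4.44% of all genes) and 5 in the second (2.71%), and DESeq2 at an adjusted p below 0.05 called 4 (0.791% of all genes were called lower) and 1 (0.349%). With pairing within genotype the same edgeR test called 5 members lower in WT cells, where 1.76% of genes were called lower, and 5 in KO cells, where 0.796% were. *Ager*, *Clic5*, *Aqp5* and *Emp2* were among the 5 in both genotypes, joined by *Rtkn2* in WT cells and by *Akap5* in KO cells. No member was called higher: unpaired, 0.218% of genes were in WT and 0.228% in KO cells, and paired, 1.87% and 1.33%. Averaged over the genotypes, the unpaired test called 3 members lower, *Ager*, *Rtkn2* and *Clic5* (0.233% of all genes), and the paired test 6, *Aqp5*, *Akap5* and *Emp2* being added (3.11% of all genes). Neither called a member higher, against 0.864% and 3.47% of all genes.

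The calls differed in how firmly they held. Left out 1 pair at a time, or both replicate 1 pairs at once, the paired test called *Ager*, *Clic5* and *Emp2* in 7 of 7 fits in each genotype. *Aqp5* was called in 7 of 7 fits in WT cells and in 2 of 7 in KO cells. There the count of members called fell from 5 to 3 without any 1 of the 3 KO pairs, without pair 3 of WT cells and without both replicate 1 pairs, *Aqp5* and *Akap5* being lost. *Rtkn2* was called in 4 of 7 fits in WT cells, losing its call without pair 1 or pair 2 of that genotype and without both replicate 1 pairs. In the paired average it lost its call only in the fit without both replicate 1 pairs, *Akap5* was called in 1 of 7 fits, and *Hopx*, not called with all pairs, was called in 1. Of the unpaired calls averaged over genotypes, all 3 held without replicate 1 of the PBS cells of either genotype. They also held for *Ager* and *Clic5* without replicate 2 of KO cells with CRE, for *Clic5* without CRE replicate 1 of WT cells and for *Rtkn2* without CRE replicate 3 of WT cells. Leaving out any other library ended them, with edgeR adjusted p-values up to 0.137 for *Ager*, 0.114 for *Rtkn2* and 0.0888 for *Clic5*.

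**Figure D1:**
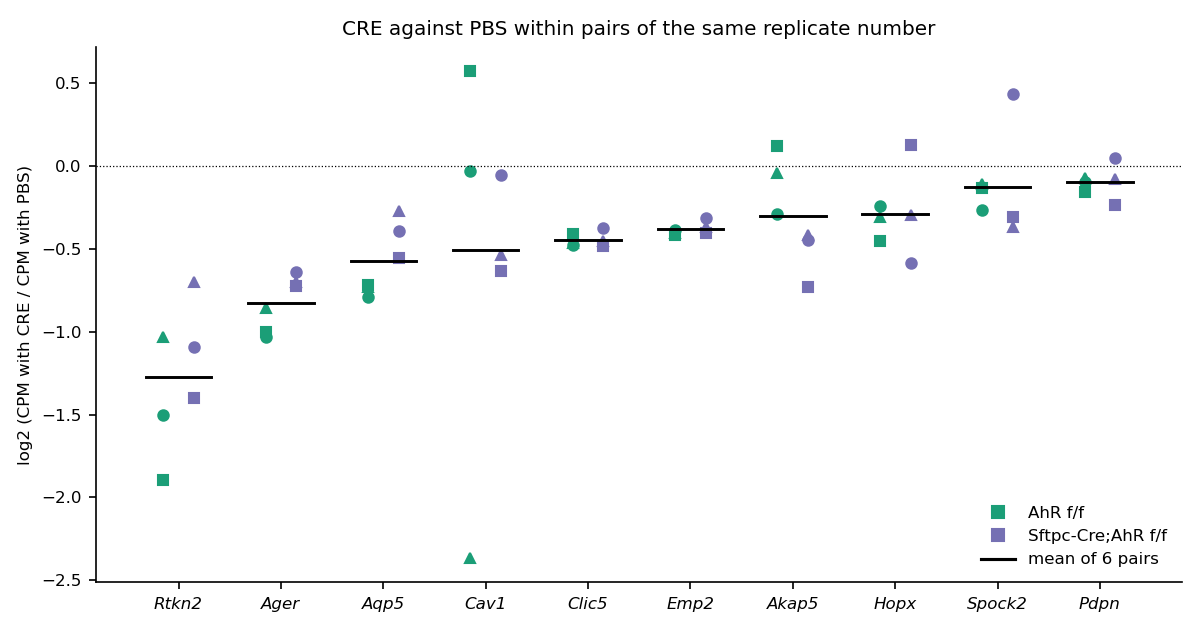
The log2 ratio of TMM-scaled CPM with CRE to that with PBS, for each member (horizontal axis, ordered by mean) and each of the 6 pairs of the same replicate number. Green marks WT and purple KO cells, circles, squares and triangles replicates 1, 2 and 3, and the bar the mean of 6 pairs: *Clic5* and *Emp2* lie in narrow clusters near -0.44 and -0.38, *Ager* and *Rtkn2* farther below 0, and *Cav1* is spread from 0.57 to -2.37.

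Among the proteins of the cell surface, *Ager* encodes the receptor for advanced glycation end products, which in lung is concentrated on the basal membrane of AT1 cells (ENSMUSG00000015452, chr17:34597862-34600936, plus strand, GRCm38 as for all positions here). In WT cells it had 484, 644 and 633 CPM with PBS (replicates 1, 2 and 3) and 237, 321 and 349.6 CPM with CRE. KO cells had 445, 775 and 573 CPM with PBS and 285, 468 and 353 CPM with CRE. The groups did not overlap in WT cells, and in the other genotype 1 CRE library exceeded the lowest PBS library. The ratio of CRE to PBS was even within each genotype, 0.490 to 0.552 in WT pairs and 0.605 to 0.641 in KO pairs. The log2 fold change, given with its SE from the unpaired fit here and for the other members, was -0.96 ± 0.24 in WT cells, with an edgeR adjusted p of 0.194 and 6.45e-04 when paired. In KO cells it was -0.70 ± 0.24, with an edgeR adjusted p of 0.575 and 0.00178 when paired.

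*Emp2* encodes epithelial membrane protein 2, a protein with 4 membrane spans that sits in caveolae and regulates integrins (ENSMUSG00000022505, chr16:10281749-10313968, minus strand). CPM values were 1117, 1544 and 1490.2 with PBS and 854, 1156 and 1127 with CRE in WT cells. The KO cells had 1273, 1679 and 1455 CPM with PBS and 1023, 1269 and 1126 CPM with CRE. Replicate 1 was lowest in every group, so that the groups overlapped in WT cells although each pair fell by nearly the same factor. Over the 6 pairs the ratio of CRE to PBS ran only from 0.749 to 0.803. The log2 fold change was -0.40 ± 0.16 (SE) and -0.37 ± 0.16 in the 2 genotypes. The edgeR adjusted p was 0.459 and 0.754 without pairing and 0.00182 and 0.00261 with it.

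*Cav1*, for caveolin-1, the coat protein of caveolae (ENSMUSG00000007655, chr6:17306335-17341452, plus strand), was set apart by 1 library. In WT cells it had 23.5, 15.7 and 85.7 CPM with PBS and 23.0, 23.3 and 16.6 CPM with CRE. KO cells had 16.3, 28.4 and 22.0 CPM with PBS and 15.7, 18.3 and 15.1 CPM with CRE. PBS replicate 3 of WT cells was 4.67-fold above the median of the other 11 libraries, and the groups overlapped in both genotypes. The gene beside it in the caveolin family, *Cav2*, had 243 CPM in that library against 198 and 225 CPM in the other PBS libraries of the genotype. The log2 fold change of *Cav1* with CRE in WT cells was -0.99 ± 0.51 (SE; edgeR adjusted p = 0.595), and without that library it was 0.10. In KO cells it was -0.44 ± 0.50 (edgeR adjusted p = 1).

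*Pdpn* encodes podoplanin, a mucin-like glycoprotein of the apical membrane of AT1 cells (ENSMUSG00000028583, chr4:143267431-143299564, minus strand). It had 107, 41.9 and 61.2 CPM with PBS and 100.0, 37.6 and 58.1 CPM with CRE in WT cells. KO cells had 48.2, 98.0 and 43.2 CPM with PBS and 49.9, 83.2 and 40.9 CPM with CRE. Replicate 1 of WT cells and replicate 2 of KO cells stood high under both treatments, and each CRE library lay close to its PBS partner. The ratio of CRE to PBS was between 0.849 and 1.03. Log2 fold changes were -0.10 ± 0.46 (SE) and -0.12 ± 0.46, and neither passed edgeR's test with pairing, at adjusted p = 0.422 and 0.609.

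The water channel of the group, *Aqp5*, carries osmotic water flow across the apical membrane of AT1 cells (ENSMUSG00000044217, chr15:99590782-99594829, plus strand). Its CPM in WT cells was 163, 229 and 205 with PBS and 94.1, 139 and 124 with CRE. It was 154, 219 and 191 with PBS and 117, 149 and 159 with CRE in KO cells. CRE libraries lay below all PBS libraries in WT cells, and in the other genotype CRE replicate 3 exceeded PBS replicate 1. The log2 fold change was -0.74 ± 0.19 (SE) in WT cells, with an edgeR adjusted p of 0.197 unpaired and 0.00232 paired. In KO cells it was -0.41 ± 0.19, with an edgeR adjusted p of 0.774 unpaired and 0.0205 paired.

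Of the genes for cytoskeletal and scaffold proteins, *Clic5* had the most even response. It encodes chloride intracellular channel protein 5, which links membrane and cortical actin (ENSMUSG00000023959, chr17:44188584-44280172, plus strand). It had 668, 798 and 829 CPM with PBS and 480.3, 601 and 599 CPM with CRE in WT cells. The KO libraries had 783, 946 and 911 CPM with PBS and 603, 676 and 667 CPM with CRE. The groups did not overlap in either genotype, and the 6 ratios of CRE to PBS lay between 0.714 and 0.770. Its log2 fold change was -0.45 ± 0.12 (SE) and -0.44 ± 0.12 in the 2 genotypes. The edgeR adjusted p was 0.210 and 0.302 unpaired and 0.00221 and 0.00259 paired.

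*Rtkn2*, for rhotekin-2 (ENSMUSG00000037846, chr10:67979570-68059740, plus strand), had the largest fold change of the 10 genes in either genotype. Its CPM was 4.42, 7.13 and 5.90 with PBS and 1.56, 1.92 and 2.89 with CRE in WT cells. The KO values were 6.15, 13.1 and 6.96 with PBS and 2.88, 4.97 and 4.29 with CRE. No CRE library reached a PBS library of its genotype, as was also the case for *Clic5*, and 0.927% of all genes lay lower without overlap in both genotypes. It was 2.74-fold lower with CRE in WT cells (log2 fold change -1.46 ± 0.36, SE), with an edgeR adjusted p of 0.190 unpaired and 0.0178 paired. It was 2.16-fold lower in KO cells (-1.11 ± 0.35), with an edgeR adjusted p of 0.499 unpaired and 0.0551 paired. An exon of *Rtkn2* overlaps an antisense gene that had 0 counts.

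*Akap5* encodes an anchoring protein that holds protein kinase A near the membrane (ENSMUSG00000021057, chr12:76324891-76334153, plus strand). In WT cells it had 92.5, 112 and 132 CPM with PBS and 75.5, 122 and 128 CPM with CRE, which overlapped. In KO cells it had 145, 188 and 139 CPM with PBS and 106, 113 and 104 CPM with CRE, without overlap. The log2 fold change was -0.05 ± 0.20 (SE) and -0.54 ± 0.20, and in the second genotype the edgeR adjusted p was 0.643 unpaired and 0.0380 paired. Whether the 2 responses differ was tested as the interaction, -0.49 ± 0.28, with an edgeR adjusted p of 1 unpaired and 0.494 paired.

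*Hopx*, the transcriptional member, encodes a small homeodomain protein that does not bind DNA itself and acts through partners (ENSMUSG00000059325, chr5:77086988-77115121, minus strand). It had 127, 144 and 155 CPM with PBS and 108, 105 and 125 CPM with CRE in WT cells. KO cells had 172, 132 and 143 CPM with PBS and 115, 145 and 116 CPM with CRE. The groups did not overlap in WT cells, where 5 members in all lay lower without overlap (7.66% of all genes). In KO cells CRE replicate 2 exceeded its PBS partner, and 4 other members lay lower without overlap (5.35% of all genes). Its log2 fold change was -0.33 ± 0.13 (SE) and -0.25 ± 0.13, and the edgeR adjusted p with pairing was 0.204 and 0.422. Exons of *Hopx* overlap those of the antisense gene *Hopxos*, which had 0.372 to 1.28 CPM, and whether the counting used strand is not stated.

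*Spock2* encodes testican-2, a proteoglycan of the extracellular matrix (ENSMUSG00000058297, chr10:60106219-60135198, plus strand). Between libraries it varied against *Ager*, *Rtkn2*, *Emp2*, *Clic5*, *Aqp5* and *Akap5*. It had 4.99, 3.52 and 3.31 CPM with PBS and 4.14, 3.22 and 3.07 CPM with CRE in WT cells. The KO libraries had 3.79, 3.30 and 4.22 CPM with PBS and 5.13, 2.66 and 3.26 CPM with CRE. The groups overlapped in both genotypes. Its log2 fold change was -0.18 ± 0.27 (SE) and -0.03 ± 0.27, with edgeR adjusted p-values of 0.698 and 0.910 when paired.

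**Figure D2:**
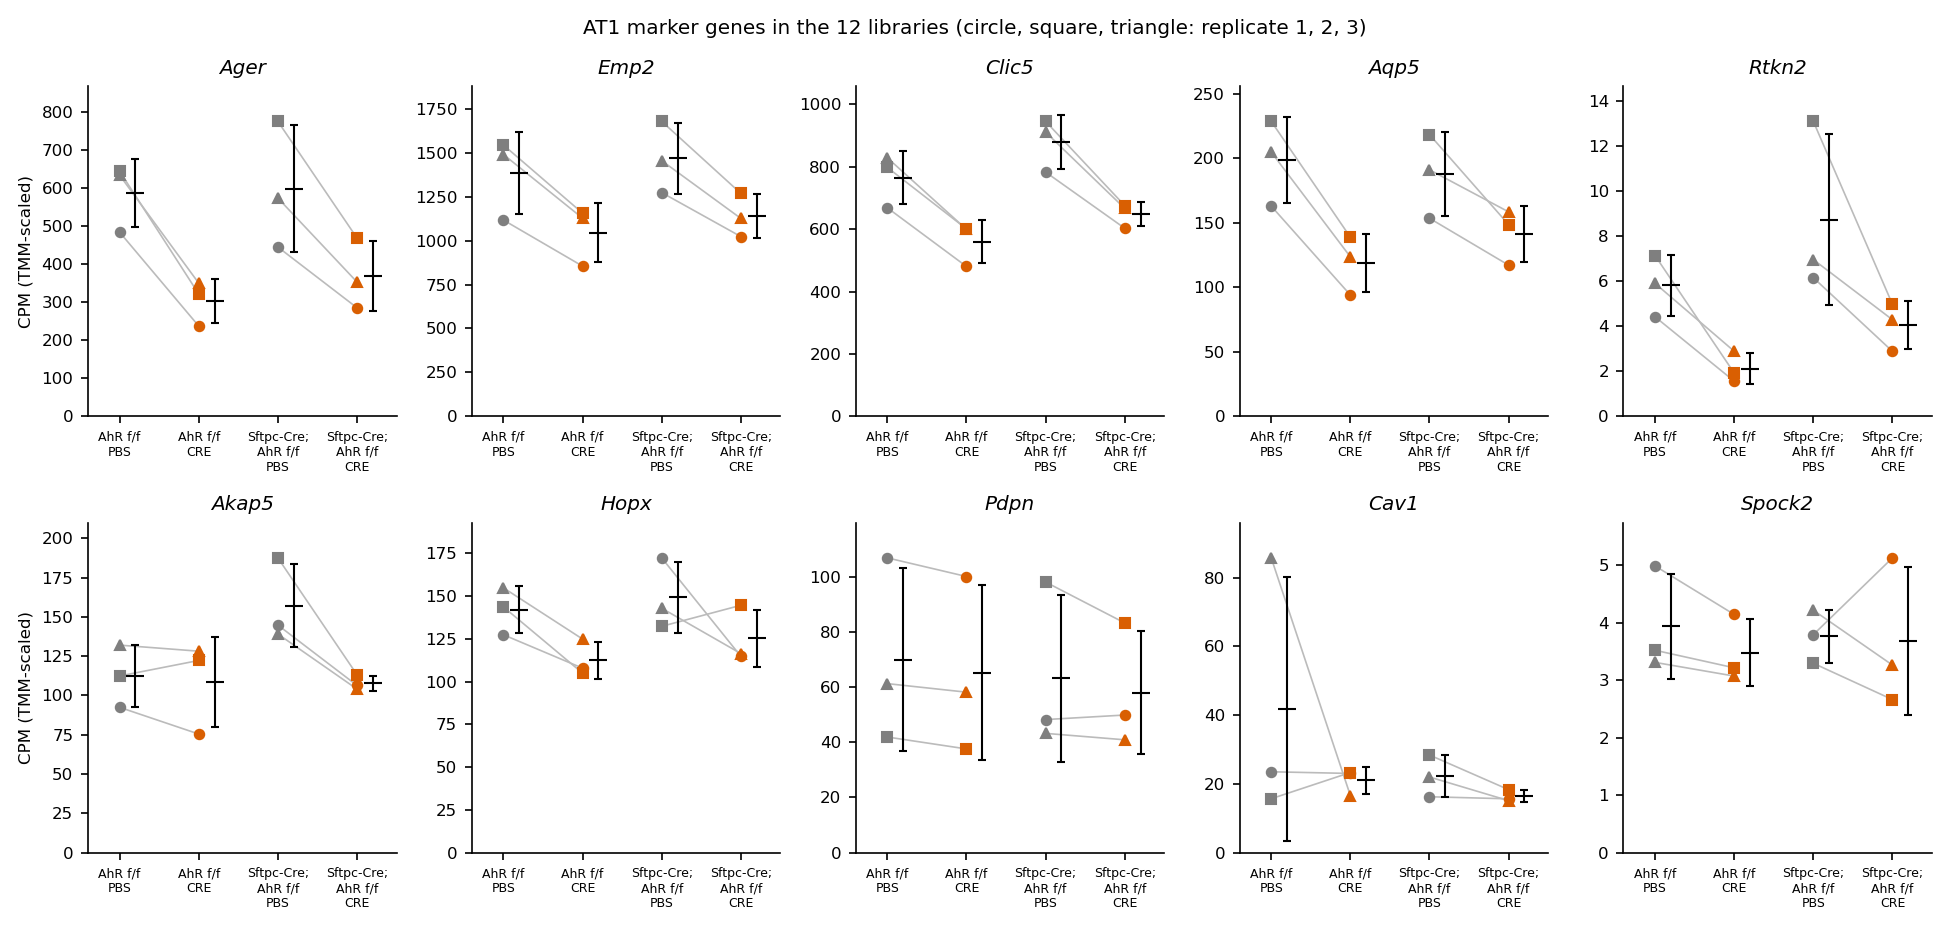
TMM-scaled counts (CPM) of the 10 AT1 marker genes in the 12 libraries, each panel starting at 0. Points are libraries (grey PBS, orange CRE), grey lines join libraries that share a replicate number within a genotype, and black marks give the mean ± SD of 3 libraries; the lines of *Ager*, *Emp2*, *Clic5*, *Aqp5* and *Rtkn2* all slope down, and the 85.7 CPM of *Cav1* in 1 PBS library stands alone.

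The second question was whether KO cells differ from WT cells in these genes. No member passed edgeR's test between the genotypes, neither with PBS, where 0.102% of genes were called lower and 0.0485% higher, nor with CRE, where 0.112% and 0.0582% were. At an unadjusted p below 0.05 this test gave 1 member higher in KO cells in each treatment, where 3.76% and 2.94% of all genes were, and 0 lower, where 4.6% and 3.01% were. With PBS it was *Akap5*, with 157 ± 26.5 CPM against 112 ± 19.8 (log2 fold change 0.48 ± 0.20, SE; edgeR adjusted p = 0.538). With CRE it was *Rtkn2*, with 4.05 ± 1.07 CPM against 2.12 ± 0.688 (0.93 ± 0.35; edgeR adjusted p = 0.777). Without overlap of the libraries, 1 member was higher in KO cells with PBS, *Akap5* (6.6% of all genes), and 1 with CRE, *Clic5* (5.56%). DESeq2 called 0 members in either genotype comparison, where it called 243 of 20612 genes with PBS and 174 with CRE. Intervals for the genotype difference with PBS were taken from the SE and a normal quantile. With so few libraries this makes them narrower than true 95% intervals. They were narrowest for *Clic5* (-0.02 to 0.43 on the log2 scale), *Hopx* (-0.18 to 0.32) and *Emp2* (-0.23 to 0.40), and wider for *Ager* (-0.44 to 0.49). Differences of those sizes, and somewhat larger ones, remain possible.

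A difference between the CRE responses of the genotypes was not detected for any member. The interaction of *Ager* was 0.26 ± 0.33 (SE) and that of *Aqp5* 0.33 ± 0.26 on the log2 scale, the decrease being the smaller in KO cells by these point values, and edgeR called 0 of all genes. At an unadjusted p below 0.05, edgeR's interaction gave 0 members unpaired, where 2.02% of all genes were lower and 1.68% higher, and 3 paired, *Ager*, *Aqp5* and *Akap5*, each with a paired adjusted p of 0.494. In that paired fit 4.8% of all genes were higher and 4.29% lower at an unadjusted p below 0.05. DESeq2 called 23 genes for the interaction and 0 of them were members.

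Within a group the members did not vary as 1 block. Of the log2 CPM deviations from the group means over 12 libraries, *Ager*, *Rtkn2*, *Emp2*, *Clic5*, *Aqp5* and *Akap5* had Pearson correlations between 0.71 and 0.96 with each other, the highest for *Emp2* with *Clic5*. *Spock2* ran opposite to these 6, at -0.82 to -0.65. *Hopx*, *Cav1* and *Pdpn* had no correlation above 0.5 with any member. These values describe 12 libraries that are not independent, since CRE and PBS are paired, and genes share the library's depth. PBS replicate 2 of KO cells was the highest of all 12 libraries for 5 of the 6 genes, the exception being *Aqp5*.

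**Figure D3:**
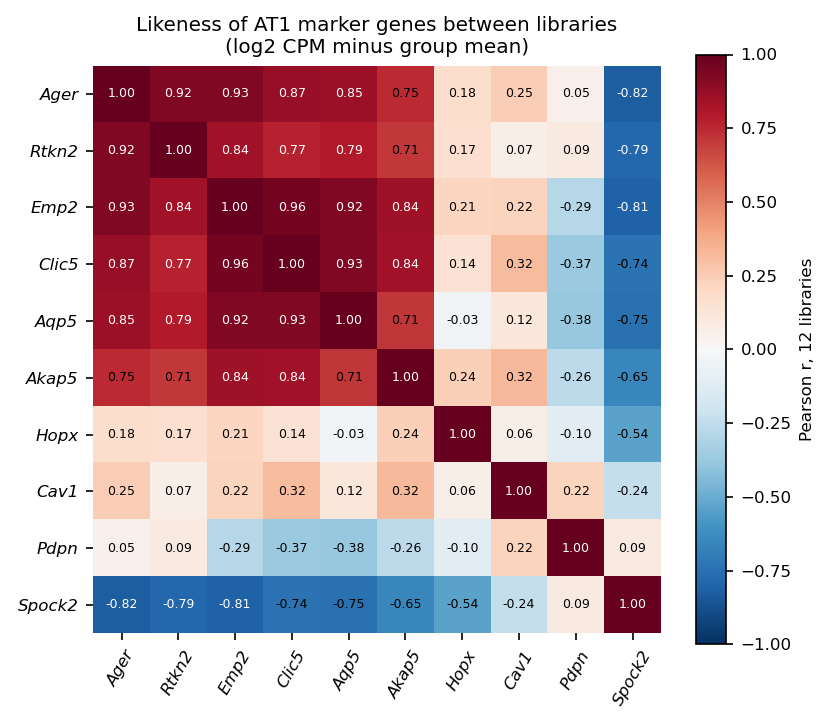
Pearson correlation between the members over 12 libraries, from log2 CPM after the group mean was taken off, printed in each cell and coloured from blue (-1) to red (1). The 6 genes at upper left form a block of 0.71 and above, and the last row and column, *Spock2*, are blue against that block.

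The tested gene outside the list that varied most like each member differed from member to member. Each value is the highest found among all tested genes, over 12 libraries that are not independent. A high value is therefore partly set by the search, and is a description only. For *Emp2* it was *Gprc5a*, a receptor of AT1 and intermediate cells (r = 0.990 over 12 libraries), and for *Ager* it was *Tinag* (0.986). *Clic5* had *Brd7* (0.996), *Aqp5* had *Lamp1* (0.983), *Akap5* had *Hdlbp* (0.973) and *Rtkn2* had *Psmd4* (0.963). *Pdpn* had *Axl*, a receptor tyrosine kinase of stromal and epithelial cells (0.987), *Hopx* had *Sf3b6* (0.961) and *Cav1* had *Nsmaf* (0.967). For *Spock2* the nearest gene, *Art5* (0.954), had 0.203 CPM or less in every library, which is too few counts to read.

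RNA of other cells varied with some members and against others. The summed CPM of 11 leukocyte markers was highest in replicate 1 of each genotype, at 358 and 306 with PBS and CRE in WT cells and 261 and 220.5 in KO cells, against 46.5 to 95.8 in the other 8 libraries. Its correlation with *Clic5* over the deviations was -0.96, with *Emp2* -0.90 and with *Ager* -0.84. It was -0.83 with *Aqp5*, -0.80 with *Akap5* and -0.77 with *Rtkn2*, and 0.79 with *Spock2*. In pairs this sum was lower with CRE in 5 of 6, with ratios from 0.844 to 1.03, and the PBS and CRE ranges overlapped within each genotype. Without both replicate 1 pairs the log2 fold change of *Ager* in the paired fit averaged over genotypes was -0.82 (edgeR adjusted p = 0.00407), that of *Clic5* -0.46 (0.00679) and that of *Emp2* -0.40 (0.00678). *Rtkn2* then had -1.26 with an adjusted p of 0.0669, and 4 members in place of 6 were called, *Ager*, *Clic5*, *Aqp5* and *Emp2*. The part of leukocyte RNA in the levels of these genes and in their decrease with CRE was not tested.

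*Pdpn* tracked the fibroblast markers instead. The sum of 11 of them, led by *Acta2* and *Col1a1*, ranged from 128 to 353 CPM over the 12 libraries and correlated with *Pdpn* at 0.97, while the endothelial sum gave 0.89. The same libraries, replicate 1 of WT and replicate 2 of KO cells, were highest for both. *Cav1*, also a gene of those cells, had 0.29 with the fibroblast sum and 0.08 with the endothelial sum. The part of these cells in the levels of *Pdpn* was not tested.

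**Figure D4:**
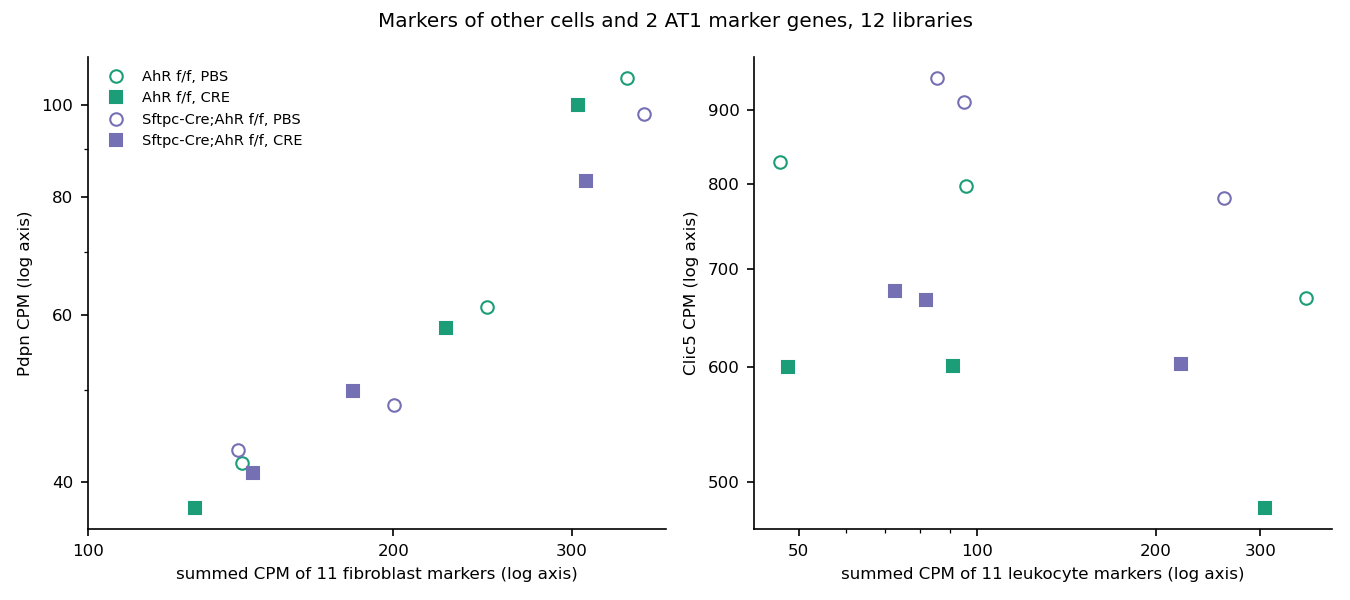
Left, *Pdpn* against the summed CPM of 11 fibroblast markers; right, *Clic5* against the summed CPM of 11 leukocyte markers, 1 point per library on log axes, open circles PBS and filled squares CRE, green *AhR f/f* (WT) and purple *Sftpc-Cre;AhR f/f* (KO). *Pdpn* rises with the fibroblast sum in PBS and CRE libraries alike. *Clic5* is lowest in the library of each group with the highest leukocyte sum, and lower with CRE than with PBS within a genotype.

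Most other genes of AT1 cells from a second list were also lower with CRE. In the unpaired fit averaged over genotypes, 13 had a log2 fold change below 0, as did 50.4% of all genes. The 3 above 0 were *Sema3e*, *Cryab* and *Ahnak*. Of 16 genes, 9 were called lower and 0 higher by the paired edgeR test averaged over genotypes, against 3.11% and 3.47% of all genes. Without pairing 0 were called, against 0.233% and 0.864% of all genes, and the median log2 fold change was -0.21 in the unpaired fit. Values of single genes in this and the following lists are averages over genotypes from the paired fit, and medians are from the unpaired fit. The 9 included both basement membrane collagens of the list, *Col4a4* (-0.77 ± 0.038, SE) and *Col4a3* (-0.51 ± 0.063), and the laminin chain *Lama3* (-0.43 ± 0.065). *Gprc5a* (-0.37 ± 0.017), *Timp3*, an inhibitor of matrix proteases (-0.29 ± 0.036), and *Cldn18*, the alveolar tight junction protein (-0.27 ± 0.019), were among them too. The rest were *Gramd2* (-0.26 ± 0.042), *Cav2* (-0.22 ± 0.034) and *Krt7* (-0.21 ± 0.018). No gene of this list passed the unblocked test between the genotypes.

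YAP and TAZ with their TEAD partners are known to drive AT1 genes, so the pathway was listed as well. The paired edgeR test averaged over genotypes called 3.11% of all genes lower with CRE and 3.47% higher. Of the 15 pathway genes it called 4 lower and 0 higher, and 0 were called without pairing. These were the secreted targets *Ccn2* (-0.48 ± 0.045, SE) and *Ccn1* (-0.21 ± 0.027), the receptor *Axl* (-0.30 ± 0.042) and the scaffold *Amotl1* (-0.22 ± 0.046). The median of the 15 was -0.05, and no gene of the pathway passed between the genotypes.

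The AT2 and intermediate-state genes moved in both directions. Of all genes, 3.11% were called lower and 3.47% higher by the paired test averaged over genotypes. Of 15 AT2 genes the paired edgeR test averaged over genotypes called 3 higher with CRE, the mucin *Muc1* (0.99 ± 0.054, SE), *Lamp3* (0.30 ± 0.034) and the surfactant protein *Sftpd* (0.29 ± 0.030). It called 4 lower, *Lpcat1* (-0.55 ± 0.055) and *Abca3* (-0.18 ± 0.030), both needed for surfactant lipid, the transcription factor *Etv5* (-0.47 ± 0.053) and *Sftpc* (-0.09 ± 0.015). *Muc1* and *Etv5* passed without pairing too, and *Sftpb*, next to *Sftpc* the most abundant of the list, was not called. By genotype, *Sftpc* had -0.23 ± 0.021 in WT cells (paired edgeR adjusted p = 0.00376) and 0.05 ± 0.021 in KO cells (0.384), and the interaction did not pass (paired adjusted p = 0.275). The summed CPM of the AT2 genes was lower with CRE in all 3 WT pairs, with ratios from 0.876 to 0.902, and higher in all 3 KO pairs, with ratios from 1.03 to 1.06. Of 14 genes of the keratin 8 state the paired test called 8 lower and 3 higher, and the unpaired test 0. Those lower were *Areg* (-0.59 ± 0.054), *Sprr1a* (-0.55 ± 0.030), *Lgals3* (-0.42 ± 0.035), *Fn1* (-0.40 ± 0.054), *Clu* (-0.36 ± 0.038), *Krt18* (-0.21 ± 0.025), *Krt8* (-0.14 ± 0.017) and *Krt19* (-0.08 ± 0.018). Those higher were *Sfn* (0.22 ± 0.020), *Cdkn1a* (0.19 ± 0.023) and *Cldn4* (0.16 ± 0.033).

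Markers of the cells that share *Pdpn* and *Cav1* were examined in the same way. All 10 mesothelial and lymphatic markers had a log2 fold change below 0 with CRE, as did 50.4% of all genes, with a median of -0.55. Against 3.11% of all genes called lower and 3.47% higher, here and in the next lists, the paired edgeR test called 6 of them lower. These were *Muc16* (-1.64 ± 0.33, SE), *Upk3b* (-1.21 ± 0.13), *Gpm6a* (-0.60 ± 0.083), *Prox1* (-0.55 ± 0.12), *Lrrn4* (-0.53 ± 0.056) and *Upk1b* (-0.47 ± 0.065). *Msln*, the most abundant of them at 32.5 ± 6.40 FPKM, was not called. Their sum was lower with CRE in 6 of 6 pairs, with ratios from 0.776 to 0.899, beside ratios from 0.704 to 0.763 for the sum of the 10 AT1 genes. It correlated with *Rtkn2* at 0.69, with *Ager* at 0.66 and with *Pdpn* at 0.58 over the deviations, and its part in the AT1 results was not tested. Of 15 endothelial genes 2 were called lower, *Plvap* (-0.45 ± 0.070) and *Egfl7* (-0.36 ± 0.071). *Esam* and *Eng*, the most abundant of that list, were not called. Of 11 fibroblast genes 3 were called lower, *Col3a1* (-0.42 ± 0.068), *Col1a2* (-0.40 ± 0.050) and *Col1a1* (-0.19 ± 0.043), and of 11 leukocyte genes 3, *Mrc1* (-0.84 ± 0.15), *Itgax* (-0.85 ± 0.080) and *Cd79a* (-0.28 ± 0.060). *Cd68* and *Tyrobp*, which led the leukocyte list, were not called. Of 5 airway genes tested *Scgb1a1* (-0.25 ± 0.030) was called lower and *Krt5* (0.97 ± 0.16) higher. Without pairing edgeR called 0 genes of these 5 lists.

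**Figure D5:**
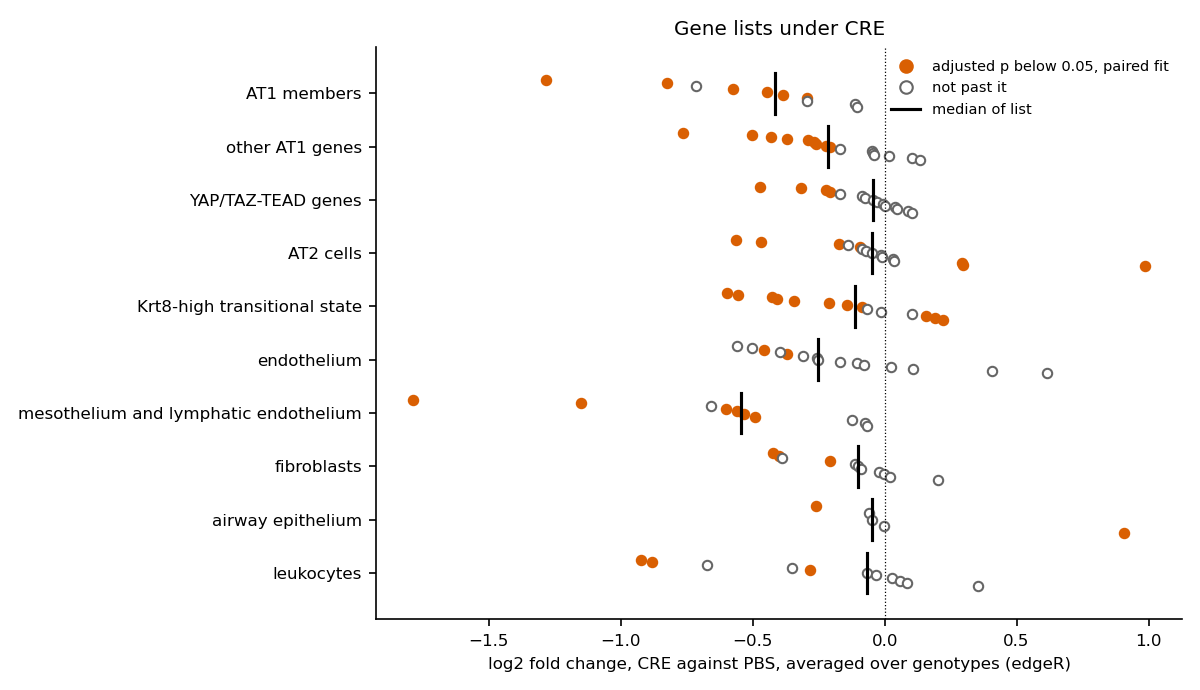
Log2 fold change with CRE averaged over genotypes (edgeR without pairing, horizontal axis) for every tested gene of each list, 1 point per gene, filled where the paired test gave an adjusted p below 0.05, with a bar at the list median. The AT1 members (median -0.42) and the mesothelial and lymphatic markers (-0.55) lie wholly below 0, while AT2 genes (-0.05) lie on both sides of it.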

How the data were processed

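RNA-seq was performed by the authors on AT2 cells from mice of the WT and KO genotypes, given PBS or CRE, 3 libraries per group. Stranded mRNA libraries were aligned with STAR 2.7.2b to GRCm38 in Partek and quantified with Salmon, per the labels and methods. The deposited counts are whole numbers per gene, not normalized, and the FPKM values deposited beside them were scaled by the authors for length and library size. The study names RefSeq as its annotation, while the gene IDs in the table are Ensembl IDs. All 55450 gene IDs were found in GENCODE M21 (GRCm38), which gave symbols and positions. Per-sample tables and the combined table differed in 0 values.

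Counts were normalized with TMM and filtered with filterByExpr at a minimum count of 10 (edgeR 4.0.16, R 4.3.3), which left 20612 genes and all 10 members. Contrasts came from 1 quasi-likelihood fit of 4 group means to 12 libraries, with Benjamini-Hochberg adjustment over all genes and a threshold of 0.05. CPM are TMM-scaled, and log2 CPM used a prior count of 2. Standard errors were derived from the fold change and the F statistic. Depth was 68878065 to 80935797 counts per library, at which 3 counts, the limit that a count of 0 allows, are 0.0371 to 0.0436 CPM, and this covers counting error only. Correlations of same-numbered CRE and PBS libraries over 14330 genes were 0.732, 0.401 and 0.659 in WT and 0.583, 0.531 and 0.302 in KO cells, so the numbers were taken as pairs for CRE, and a fit with a term for each pair is given. Between genotypes they were 0.415, 0.0719 and 0.132 with PBS and 0.422, -0.0302 and 0.0927 with CRE.

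Alternatives were DESeq2 1.42.0, limma-trend 3.58.1 at the paper's rule (unadjusted p below 0.05, absolute log2 fold change above 0.5), RLE size factors, no filter, only the 6 libraries compared and leaving out libraries. The fits were also run on simulated counts, which held no replicate or pair effect and so could not test the pairing. The members, the other lists, the tests and the alternatives were chosen with earlier results of these data known. The text names all 10 members in each comparison, and of each other list the genes called and the 2 of highest FPKM in WT cells with PBS, and for each member the gene outside the list with the highest correlation of deviations.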

Additional observations from a re-analysis of the deposited data

Results flagged for a closer look

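The summed CPM of 15 AT2 genes moved in opposite directions with CRE in all pairs of the 2 genotypes. The ratio of CRE to PBS was 0.876 to 0.902 in the 3 WT pairs and 1.03 to 1.06 in the 3 KO pairs, and the mean log2 ratio was higher in KO than in WT pairs by 0.2456. This difference of the sums was not tested, and no AT2 gene of the list passed the interaction test of edgeR, with or without pairing. A sum is weighted towards the most abundant genes, and the single genes did not all follow it. By unpaired log2 fold change, 11 were lower and 4 higher with CRE in WT cells, and 7 lower and 8 higher in KO cells. *Muc1* was higher and *Etv5* and *Lpcat1* were lower in both genotypes.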

How the results depend on the processing

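The direction of the CRE response in each genotype was below 0 for all 10 members under DESeq2, limma-trend, RLE size factors, no filter, only the 6 libraries compared and the replicate block. Counts of calls depended on the setting. For CRE in WT cells the genes called were 48 in the fit without pairing, 748 with the replicate block (paired), 848 by the paper's rule with limma-trend and 409 with DESeq2, and the members called were 0, 5, 3 and 4. For CRE in KO cells the genes were 54, 439, 696 and 254, and 13 with only the 6 libraries, and the members 0, 5, 3 and 1. Averaged over genotypes the genes were 226, 1358, 828 and 740, and the members 3, 6, 3 and 6, with 1 when no filter was applied. Between genotypes with PBS the genes called were 31, 71 with the replicate number as a block, 846 by the paper's rule, 243 with DESeq2 and 15 with the 6 libraries, and with CRE 35, 55, 705 and 174. The numbers are shared only between genotypes, and this block called 0 members in either treatment. Of the second AT1 list it called *Cldn18* higher in KO cells, with PBS (edgeR adjusted p = 0.0479) and with CRE (0.00304), against 0.759 and 0.763 without it. The paper's rule called 1 member with CRE, *Rtkn2*. The interaction called 0 genes, 475 by the paper's rule and 23 with DESeq2. The block and limma-trend turned the genotype difference of *Akap5* with CRE to 0.0220 and 0.0281 (log2), and the interaction of *Pdpn* to 0.0188 and 0.0193. The cause of these differences was not tested. The blocked fit changed no call of a member other than those given.

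Leaving out 1 library at a time, genes called ran from 19 to 47 and 23 to 62 for CRE in WT and KO cells, 15 to 26 and 21 to 30 between genotypes with PBS and CRE, 0 to 2 for the interaction and 125 to 219 for the average, where 0 to 3 members were called. In paired fits without 1 pair, chosen after the data were seen, 3 to 5 members were called in KO cells, and 3 without both replicate 1 pairs. Log2 fold changes that crossed 0 were, for CRE in WT cells, *Cav1* (-1.38 to 0.10), *Akap5* (-0.18 to 0.16), *Pdpn* (-0.55 to 0.34) and *Spock2* (-0.32 to 0.0258). For CRE in KO cells they were *Pdpn* (-0.48 to 0.34) and *Spock2* (-0.35 to 0.16), and for the average *Pdpn* (-0.34 to 0.12). Between genotypes with PBS they were *Ager* (-0.21 to 0.20), *Hopx* (-0.0436 to 0.15), *Cav1* (-1.30 to 0.18), *Aqp5* (-0.21 to 0.0437), *Pdpn* (-0.61 to 0.29), *Emp2* (-0.0462 to 0.18) and *Spock2* (-0.17 to 0.14). With CRE they were *Akap5* (-0.21 to 0.13), *Pdpn* (-0.51 to 0.28), *Emp2* (-0.0029 to 0.20) and *Spock2* (-0.23 to 0.28). For the interaction they were *Hopx* (-0.0351 to 0.20), *Clic5* (-0.0907 to 0.10), *Cav1* (-0.54 to 0.94), *Pdpn* (-0.46 to 0.44), *Emp2* (-0.0899 to 0.17) and *Spock2* (-0.17 to 0.34). The lowest count of any member in a library was 125, for *Rtkn2*.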
